A study of Mus musculus with 6 samples.

Results

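Haematopoietic stem cells from Satb1-null fetal liver were compared here with those of wild type littermates, in 2 of the 6 microarrays of a study of Satb1 in early blood progenitors. Satb1 is a nuclear protein that binds AT-rich DNA and organises chromatin loops, best known for its part in T cell development in the thymus. The stem cell at the top of blood formation renews itself, and its descendants pass through lymphoid-primed multipotent progenitors (LMPP) and common lymphoid progenitors (CLP) on the way to B and T cells. The comparison asks which genes differ already at the stage before lymphoid commitment.

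Both HSC samples came from mouse embryos of the C57BL6/J background at E18.5, late in gestation, when the liver is the main blood-forming organ. The sort took liver cells that lacked lineage markers (Lin-) and Flt3 and carried high c-kit and Sca-1, a gate that enriches for HSC and does not purify them. One sample had the wild type genotype and the other the genotype labelled Satb1-null, called null-labelled below, and neither received a treatment. From each, 6.1 ng of RNA was used to make amplified cDNA (Ovation Pico WTA V2), which was labelled with Cy3 and hybridised to 1 single-colour Agilent array. Neither the number of embryos behind a sample nor the part of Satb1 that the null allele lacks was stated. There was 1 array a side, so no difference has a replicate check, a p-value or an error between animals. In bulk RNA, fewer cells of a type and less RNA per cell cannot be told apart.

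A level is the log2 signal of a gene's brightest probe, with the 75th percentile of its array set to 0. A difference is the null-labelled level minus the wild type level, so 1 is 2-fold higher in the null-labelled cells and -1 is 2-fold lower. Of 19819 autosomal genes with a named probe, 13446 were compared, with X- and Y-linked genes left out. The scanner software called 11864 of them well above background on both arrays, which gives a measured difference. The other 1582 were well above background on 1 array, so their difference is a bound, written with "at least". Bright genes are the 6960 whose mean of the 2 HSC levels was 0 or more.

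The array check found no saturated spots, and 57.7% of wild type and 55.3% of null-labelled spots were well above background. The targeted gene Satb1 had a level of -0.03 in wild type and -0.59 in null-labelled HSC, a difference of -0.56. It rests on 1 probe whose place relative to the removed part is not known, so it does not check the label. Of the sort markers, Kit stood at 4.42 and 4.64 and Ly6a, which encodes Sca-1, at 0.29 and 0.35, a difference whose sign turns with 3 other settings. Flt3 stood at 1.18 and 1.35, well above background on both arrays although the gate excluded Flt3 protein. Xist, the noncoding RNA of the inactive X chromosome, was at least 8.77 higher on the null-labelled array, and Y-linked Ddx3y and Eif2s3y were lower by 1.83 and 2.43. The wild type arrays lay in 1 row of the slide and the null-labelled arrays in the other. Genotype, slide row and this sex-linked signal cannot be told apart for any autosomal gene below.

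Most genes stood close together on the 2 arrays, and large differences were concentrated among dim genes. Over all genes compared, 1125 were at least 2-fold higher in null-labelled HSC (8.37%) and 785 at least 2-fold lower (5.84%), 14.2% in either direction. Among bright genes these counts were 186 higher (2.67%) and 79 lower (1.14%), 3.81% in all. The split depends on the centring: 70.2% of the bright genes past 2-fold were higher, beside 91.3% with arrays centred on their median and 48.2% with the 75th percentile taken over detected probes. The share past 2-fold was 31.7% of genes with a mean level below -2, 6.29% between 0 and 2, and 0.253% from 4 upward, which is 3 of 1187 genes. The error that the scanner software gives for a difference was 0.205 at the median, and the differences of bright genes lay between -0.59 at the 5th percentile and 0.83 at the 95th. That error holds no variation between sorts or amplifications. The median difference was 0.14 over all genes and 0.18 over bright genes, and 60.1% of all genes lay above 0. Medians and counts of gene groups in HSC below are to be read against these values. Reep4 (1.0015) and Lrp6 (-1.0028) were the bright genes just inside the 2-fold line, and Synj2bp (0.999993) and Dtx2 (-0.995) were just outside.

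**Figure D1:**
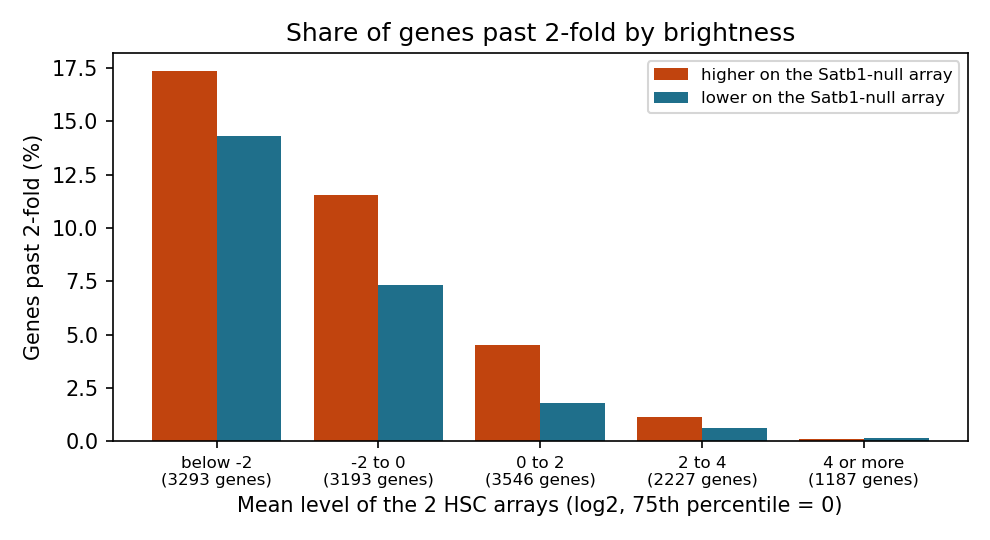
Bars give the percentage of autosomal genes at least 2-fold higher (orange) or lower (blue) on the null-labelled HSC array, by the mean log2 level of the gene on the 2 HSC arrays. The share in either direction falls from 31.7% in the dimmest class to 0.253% in the brightest.

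Notch signalling genes included some of the larger differences among bright genes. Notch receptors are cut on contact with a ligand, and the released part joins the DNA-binding protein Rbpj to switch on targets such as the Hes repressors. The target Hes5 had a level of 1.07 in wild type and 2.94 in null-labelled HSC, a difference of 1.87 or 3.67-fold. Hes1, the other classical target, stood at -0.77 and 0.95, a difference of 1.72 or 3.30-fold. Both target genes were therefore more than 3-fold higher on the null-labelled array. The promoter of Hes5 is shown with matches to the Rbpj motif in capitals. It covers the 250 bases before the transcript start used in the RefSeq promoter table, chr4:154960673-154960922 on the + strand of GRCm38.p6. The gene's listed interval begins upstream of that start, so the window lies within it.

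Hes5: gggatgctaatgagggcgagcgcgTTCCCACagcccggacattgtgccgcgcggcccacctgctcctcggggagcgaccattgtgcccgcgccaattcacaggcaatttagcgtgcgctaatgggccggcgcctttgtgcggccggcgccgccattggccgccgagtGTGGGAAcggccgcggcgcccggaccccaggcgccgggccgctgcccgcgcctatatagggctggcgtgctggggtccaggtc

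The letters GTGGGAA, searched on both strands, were found 2 times, ending 219 and 76 bases before the start, and 5.42% of 32851 promoter windows of this length hold them at least once. The sequence table used here has no entry for Hes1. Upstream of the targets the differences were smaller. The receptor Notch1 stood at 0.07 and 0.995, a difference of 0.93, and Notch2 at 3.69 and 3.95, a difference of 0.26. Rbpj itself differed by 0.18, from 2.38 to 2.56. Of the Fringe enzymes, which add sugars to Notch and tune its ligand choice, Mfng differed by 0.60, Lfng by 0.05 and Rfng by 1.09, but the other probe of Rfng gave -0.83. The targets Nrarp and Hey1 differed by 0.29 and 0.12, so the difference past 2-fold was seen for Hes1 and Hes5 and not for these. Of 17 Notch genes compared, 3 were past 2-fold higher and 0 lower, 15 lay above 0, and the median was 0.26. The ligands Dll1, Dll4 and Jag1 were not well above background on either array. In LMPP the Hes5 and Hes1 differences were both 0.23, and in CLP they were -0.31 and 0.52.

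Among single bright genes, Chst1 had the highest difference. Chst1, a sulfotransferase of keratan sulfate and related glycans, stood at -1.84 in wild type and 2.41 in null-labelled HSC, a difference of 4.25. The difference of its 1 probe was at least 3.25 in LMPP and at least -6.01 in CLP, where the null-labelled array was not well above background. Its direction in CLP was thus opposite to that in HSC and LMPP. Dock3, an exchange factor for Rac, followed at 2.58. Hvcn1, described below, differed by 2.12 and Fancf, a Fanconi anaemia DNA repair protein, by 2.10. Sphk1, the kinase that makes sphingosine 1-phosphate, and Fdft1, which commits farnesyl diphosphate to cholesterol synthesis, both stood 2.01 higher, and their other probes gave 0.99 and 0.71. Prom1, the stem cell surface protein CD133, stood at -0.22 and 1.48, a difference of 1.70 that became 0.69 with the mean over its probes. The other probes of Desi1 gave values as low as -0.78 beside the 1.99 of its brightest probe. The bright genes higher by 2-fold thus include some whose probes disagree.

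**Figure D2:**
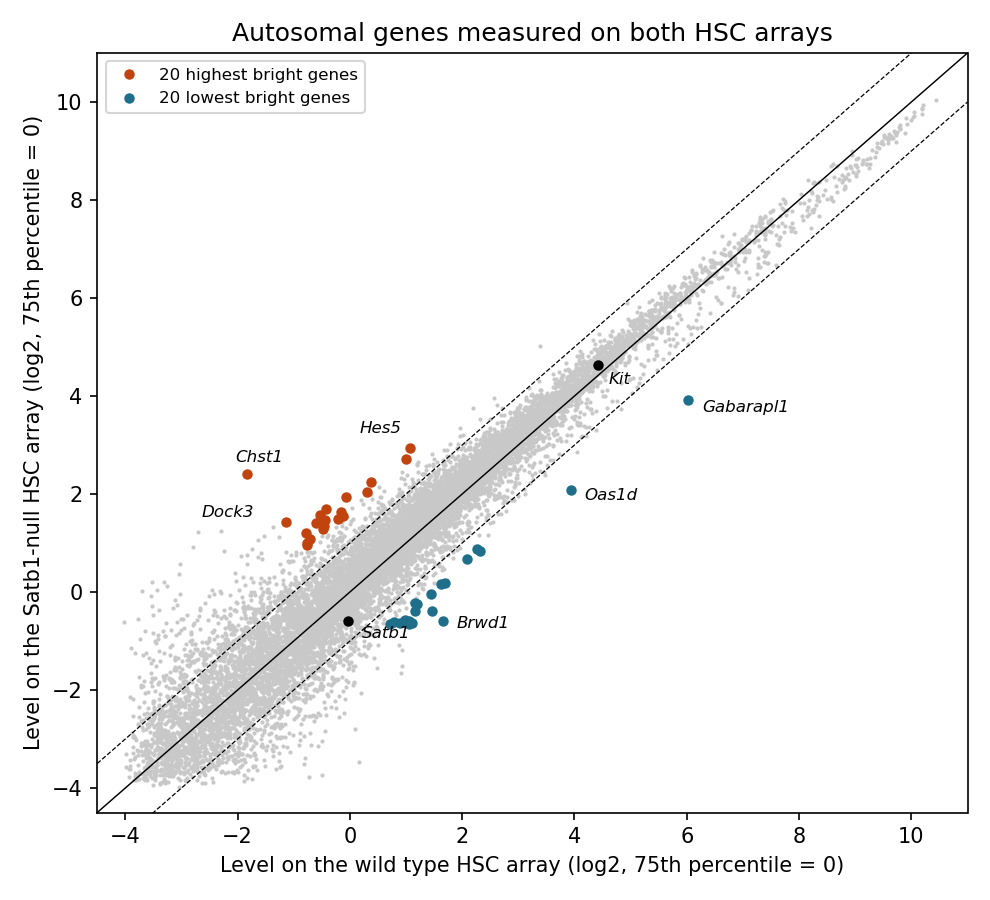
Each grey point is an autosomal gene measured on both HSC arrays, with its log2 level in wild type on the x axis and in null-labelled HSC on the y axis. The solid line marks equal levels and the dashed lines 2-fold. Orange and blue points are the 20 highest and 20 lowest bright genes, and black points are Kit and Satb1. Gabarapl1, at 6.03 and 3.92, stands apart from other genes of its brightness.

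Gabarapl1 had the clearest difference at high signal. It encodes an Atg8-family protein of the autophagosome membrane, and stood at 6.03 in wild type and 3.92 in null-labelled HSC, 4.31-fold lower. In LMPP its levels were 6.21 and 6.30, and in CLP 4.67 and 4.79, so the null-labelled HSC array was the lowest of the 6. It rests on 1 probe, and over the 8 other settings tried its difference lay between -2.23 and -1.92. Oas1d, a member of the oligoadenylate synthetase family, stood at 3.93 and 2.09, a difference of -1.85. Rac3, a small GTPase, differed by -1.84, and Gnasas1, an antisense RNA of the imprinted Gnas locus, by -1.54. Brwd1, a bromodomain protein, was lowest at -2.24 by its brightest probe, but the other 2 probes gave -0.81 and 0.02. In this case the lowest bright gene is not borne out by its other probes.

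Where a gene had several probes, they often disagreed. Of 3064 genes with at least 2 measured probes, 215 were past 2-fold by the brightest, and in 120 of these (55.8%) all probes lay on the same side of 0. Among the 2849 genes not past 2-fold this share was 56.1%, so passing 2-fold did not go with better agreement. All measured probes were past 2-fold in the same direction for 28 genes higher (0.914%) and 13 lower (0.424%). These 41 genes have the most direct support within the 2 arrays, though their probes share the same amplified RNA. With background correction by normexp the counts were 2 higher and 3 lower.

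The highest of the probe-agreed genes was Relb, the NF-kappaB subunit of the alternative pathway. Its brightest probe stood at -1.94 in wild type and 0.74 in null-labelled HSC, a difference of 2.68, and its other probe at -2.44 and -0.46, a difference of 1.98. Tigar, a fructose bisphosphatase that restrains glycolysis, gave 1.93 and 2.03 with its 2 probes, and the voltage-gated proton channel Hvcn1 gave 2.12 and 1.36. Zfp503, a zinc finger repressor, gave 1.63 and 1.61. Pla2g7, a secreted phospholipase, differed by 1.55 and 2.04, Slc25a25, a mitochondrial carrier of ATP and magnesium, by 1.27 and 1.29, and Zfp318 by 1.24 and 1.58. The kinase Cdk14 gave 1.15 and 1.97. With normexp, Pla2g7 and Cdk14 were under 2-fold by their brightest probes. Asked of all measured probes, 2 genes in place of 28 were past 2-fold higher with normexp.

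Probe-agreed genes lower in null-labelled HSC included the chemokine receptor Cxcr6, found on T, NKT and innate lymphoid cells. Cxcr6 stood at 0.93 and -1.51, a difference of -2.44, and its other probe gave -2.16. Enho, the precursor of the peptide adropin, gave -2.89 and -2.42, and the potassium channel Kcnj13 -2.26 and -2.55. Kcnq1ot1, the long noncoding RNA that silences the imprinted Kcnq1 domain on the paternal chromosome, gave -1.80 and -1.60. These 4 genes were at or below a level of 1 in wild type, and none of them belongs to the bright class. Xaf1, an interferon-induced antagonist of apoptosis inhibitors, was bright and gave -1.27 and -1.505. Celf4, Fabp3, Stmn4, Cideb, Tmc6, Trim16, Elapor1 and Trip11 completed the lower group, between -1.01 and -1.52 by their brightest probes, and all 8 were under 2-fold with normexp.

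**Figure D3:**
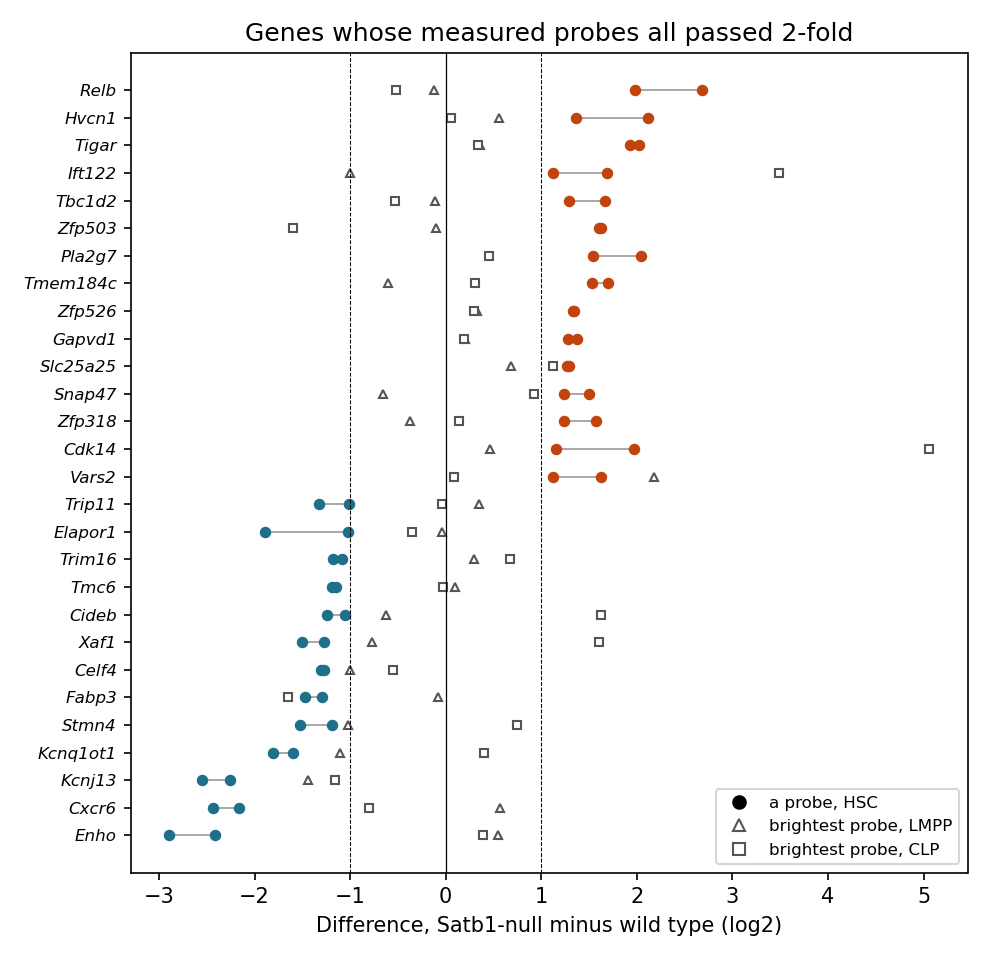
Filled points are the single probes of genes whose measured probes were all past 2-fold in HSC, with the difference null-labelled minus wild type in log2 on the x axis; triangles and squares give the brightest probe in LMPP and CLP. The genes were chosen because their HSC probes all passed 2-fold, so those probes lie on 1 side of 0. Smaller differences in LMPP and CLP can follow from the same choice. Some HSC probes of a gene lie apart, as for Cdk14 (1.15 and 1.97). The LMPP and CLP values lie mostly between -1 and 1 and in some cases on the other side of 0. Cdk14 in CLP, a bound of at least 5.06, lies farthest out.

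Stem cell identity genes did not pass 2-fold in either direction. Of 33 compared, 29 lay above 0, with a median of 0.39 beside 0.14 for all genes. The transcription factors Hlf (4.47 and 5.03), Mycn (5.97 and 6.41) and Gfi1 (4.26 and 4.72) were bright on both arrays and differed by 0.56, 0.44 and 0.46. Gata2 differed by 0.65, Erg by 0.61, Runx1 by 0.60 and the Polycomb factor Bmi1 by 0.57. Surface markers gave smaller values, with Procr at 0.23 and Cd34 at 0.35. Meis1, a partner of Hox proteins, stood at 3.64 and 3.51, a difference of -0.12. The fetal regulators Lin28b and Hmga2 differed by 0.27 and 0.30. All 33 were well above background on both arrays, while Slamf1 and Sox17 were not well above background on either. Over the settings tried, the median of the list lay between 0.26 and 0.57.

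Cytokine receptors likewise differed little. Of 32 compared, 24 lay above 0 and only Il18r1 was past 2-fold, at least 2.10 higher, with a median of 0.24. That call was lost with normexp, a background correction by a fitted model, and with the mean over probes, and the other Il18r1 probe gave -0.01. The interferon gamma receptor chain Ifngr2 stood at 3.62 and 4.45, a difference of 0.83, and the gp130 chain Il6st differed by 0.86. Il7r, dim at -2.64 and -1.71, differed by 0.93. Csf3r, the brightest after Il15ra, differed by -0.46 and Il15ra by -0.51. The brightest Il15ra probe stood at 8.58 and 8.07, and its other probe at -1.05 and -1.36. Among genes of early lymphoid priming, Sox4 differed by 0.57, Ltb by 0.41, Tcf3 by 0.44 and Ikzf1 by 0.23, and 2 of 22 were past 2-fold higher and 1 lower, with a median of 0.34. Dntt and Ly6d were well above background only in wild type, at least -0.57 and at least -0.52. Of the E protein, Id and Ikaros factors, only Id2 was past 2-fold (1.08, 1 of 13), and their median was 0.42. Id2 was under 2-fold with the 75th percentile over detected probes, with normexp and with the authors' values.

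Genes of the erythroid lineage were higher in part. Of 21 compared, 8 were past 2-fold higher and 1 lower, with a median of 0.59. The lower gene, Ermap, was at -1.03 by its brightest probe, but its other probes gave 0.98 and 1.18. The alpha globin genes stood at 3.39 and 5.02 (Hba-a1) and 2.57 and 3.95 (Hba-a2), differences of 1.63 and 1.39. These are near-identical gene copies, so their probes may read the same transcripts. Tspo2, Rhd, Ank1 and Slc4a1, all membrane or membrane skeleton proteins of red cells, differed by 1.52, 1.08, 1.08 and 1.03. Ank1 and Slc4a1 were under 2-fold with the authors' values and when the percentile was taken over detected probes. The beta globin Hbb-bt stood at 5.16 and 5.18, and the erythroid factor Klf1 differed by 0.53. Higher alpha globin thus came without a difference in the beta globin measured. The summed signal of the list was 988.5 in wild type and 881.0 in null-labelled HSC, in units of the 75th percentile. Most of it came from the brightest member, Hemgn, without which the sums were 94.3 and 139.1, so the direction turned. Epb42 and Sptb were not well above background on either array. The part of red cell RNA carried over in the sorts was not tested.

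Granulocyte and monocyte genes were all 25 well above background on both arrays. Cebpe, which drives granule formation, stood at 0.39 and 1.89, a difference of 1.51, and was the only one past 2-fold. Cebpa, the factor that commits progenitors to the myeloid line, differed by 0.92, the elastase gene Elane by 0.80 and Spi1 by 0.57. Mpo, bright at 7.53 and 7.80, differed by 0.27. The median was 0.46, and 19 lay above 0. The summed signal of this list was 725.8 and 775.9 on the 2 arrays. Csf1r differed by -0.06 and Csf3r by -0.46, so the receptors did not share the direction of Cebpe.

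B lineage genes were mostly dim, and 10 of the 17 compared were measured on both arrays. Of 17 compared, 7 were past 2-fold higher and 0 lower, none of the 7 being bright, and the median was 0.44. The 3 bright members, Cd24a, Foxo1 and Cd22, differed by 0.33, 0.39 and -0.73, so Cd22 went the other way. Pou2af1, a B cell coactivator, stood at -3.54 and -0.09, a difference of 3.46, and the factor Pax5 at -2.34 and -0.64, a difference of 1.70. Of the surrogate light chain genes Vpreb1 was at least 4.87, Vpreb2 at least 1.49, under 2-fold with normexp, and Igll1 at least 1.07 higher. Ebf1, Ms4a1 and Blnk were not well above background on either array, and Cd79a was at least 0.81 lower. The list sum was 24.0 and 28.4, and 11 members were well above background in wild type and 16 in null-labelled HSC. Of 14 T lineage genes 1 was higher and 3 lower, with a median of -0.17. The lower genes were Cd4 (1.21 and 0.14), Cd28 (1.03 and -0.01) and Cd3e (-1.72 and -2.78), at -1.07, -1.03 and -1.05, each below 2-fold with median centring, and the other probe of Cd4 gave 0.51. Cd3d, Cd3g and Cd8a were not well above background on either array.

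The remaining lineage lists had members past 2-fold in both directions, except the hepatocyte list. Megakaryocyte genes had 1 higher and 1 lower of 20, with a median of 0.22, and von Willebrand factor (Vwf) stood at -0.54 and 0.58, a difference of 1.12 that was under 2-fold with normexp and when the percentile was taken over detected probes. Mast cell, basophil and eosinophil genes had 2 higher and 1 lower of 12 (median 0.60), natural killer and innate lymphoid genes 2 higher and 1 lower of 13 (median 0.23), and dendritic cell and MHC class II genes 2 higher and 1 lower of 14 (median 0.22). Of 9 macrophage genes 2 were higher and 3 lower, of 14 endothelial and stromal genes 1 higher and 3 lower, and of 8 hepatocyte genes 1 higher. Their medians were -0.56, -0.28 and 0.64, and the first and second turned positive, to 0.21 and 0.22, over genes measured on both arrays. The stromal ligand Cxcl12, which holds HSC in their niche, stood at -0.44 and -2.84, a difference of -2.40, and Spic, a factor of iron-recycling macrophages, was at least 3.64 lower. Other members went the other way, with Vcam1 (1.55) and Maf (1.12) higher in the macrophage list and Sparc (1.97) in the stromal list. All of these higher genes were under 2-fold with normexp, as were the lower genes Marco, Axl, Flt1 and Stab2. The macrophage list sum was 4.02 and 3.77, with C1qa and Cd5l not well above background on either array. The part of carried-over cells in these values was not tested.

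**Figure D4:**
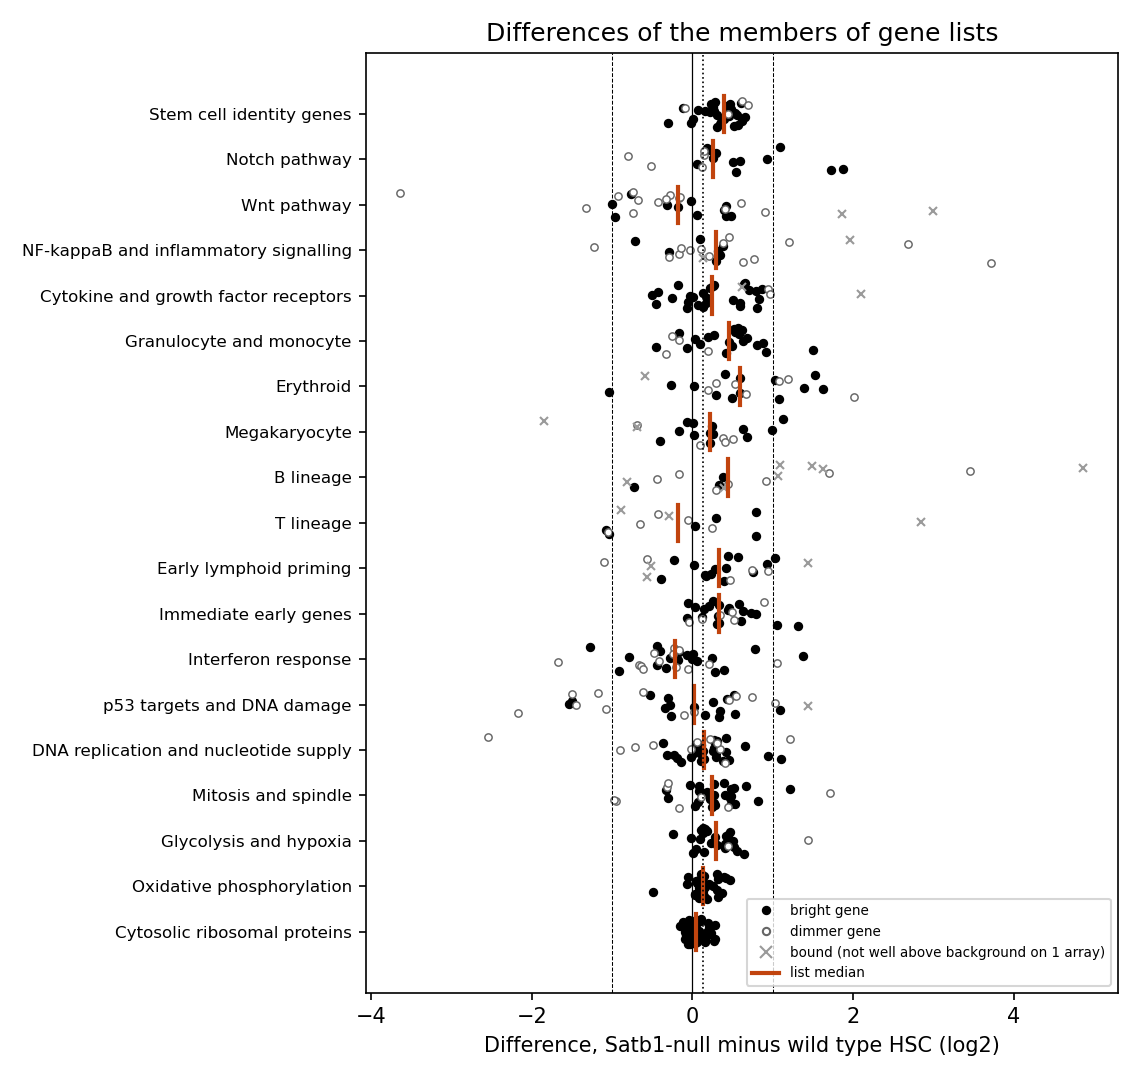
Points are the members of 19 gene lists, with the difference null-labelled minus wild type HSC in log2 on the x axis. Filled points are bright, open points dimmer, crosses are bounds, orange bars the list medians, and the dotted line the median of all genes, 0.14. Ribosomal protein genes lie closest together, and members past the dashed 2-fold lines are mostly dim.

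NF-kappaB genes included large differences at low signal. NF-kappaB dimers are held in the cytoplasm by inhibitors until receptors of the TNF and Toll-like families release them. Bcl3, a nuclear inhibitor-family protein that binds the p50 and p52 subunits, stood at -2.80 and 0.91, a difference of 3.71 or 13.1-fold. The subunit Relb differed by 2.68 as given above, whereas Rel stood at -1.24 and -2.47, a difference of -1.23. The subunits thus differed in opposite directions, and Rela (0.38), Nfkb1 (0.35) and Nfkb2 (-0.17) lay between them. Tlr4 differed by 1.20 and the ligand Tnf was at least 1.97 higher. The feedback genes Nfkbia and Tnfaip3 differed by -0.29 and 0.09. Of 23 compared, 4 were higher and 1 lower, none of them bright, with a median of 0.29. With normexp, Tlr4 (0.47), Tnf (0.48) and Rel (-0.72) were under 2-fold, while Bcl3 and Relb stayed past it in all settings tried. Bcl3 was also higher in LMPP by 0.97 and in CLP by 1.72, while Relb differed there by -0.12 and -0.52.

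Immediate early genes, which respond within minutes to growth factors and to handling of cells, were mostly above 0. Of 26 compared, 23 lay above 0 and 2 were past 2-fold, with a median of 0.34. Atf3 stood at -0.23 and 1.07, a difference of 1.31, and Btg2 at 0.07 and 1.12, a difference of 1.05 that was under 2-fold with 3 other settings. The brightest members, Jund and Fosb, differed by 0.14 and 0.11, and Egr1 by 0.61. Fos stood at 4.03 and 3.96. Among heat shock chaperones, Hspa1a, the inducible Hsp70 gene, stood at -1.83 and 0.76, a difference of 2.58 or 5.99-fold. It was higher in LMPP by 1.88 and in CLP by 1.61 as well. Its neighbour Hspa1l differed by -1.81, and Hspb1 was at least 1.57 higher, both under 2-fold with normexp. The constitutive chaperones Hspa8 (0.26), Hsp90ab1 (0.21) and Hspd1 (0.07) stayed under 2-fold, and the list of 22 had a median of 0.18. The promoter of Hspa1a is shown for the heat shock element in it, in capitals, over the 250 bases before the start at chr17:34972157-34972406 on the - strand of GRCm38.p6, from RefSeq.

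Hspa1a: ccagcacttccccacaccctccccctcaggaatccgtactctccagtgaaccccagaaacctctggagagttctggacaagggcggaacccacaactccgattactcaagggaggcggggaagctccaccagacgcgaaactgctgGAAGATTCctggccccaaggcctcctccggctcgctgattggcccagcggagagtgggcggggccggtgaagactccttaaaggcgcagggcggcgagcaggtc

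The letters GAANNTTC, which read the same on both strands, occur 1 time, ending 96 bases before the start, and 6.69% of the windows hold them. Interferon response genes lay mostly below 0. Of 33 compared, 9 lay above 0, 2 were past 2-fold higher and 2 lower, and the median was -0.21. Median centring gave 15 above 0. Isg15, a ubiquitin-like protein, stood at 1.99 and 1.20, a difference of -0.79, and Cmpk2 at 1.85 and 0.94, a difference of -0.91. Rsad2 differed by -0.40, Ifih1 by -0.44 and Irf7 by -0.01. The exonuclease Isg20 went the other way, from 0.56 to 1.93, a difference of 1.37, and the signal transducer Stat2 by 0.78. The neighbouring copies Ifit3 (1.05) and Ifit3b (-1.67) differed in opposite directions, and such copies may share probes. Both were under 2-fold with normexp.

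Wnt ligands all lay below 0. Wnt proteins are secreted signals read by Frizzled receptors with Lrp5 or Lrp6, which stabilise beta-catenin. Wnt5b stood at 0.17 in wild type and -3.46 in null-labelled HSC, a difference of -3.63 or 12.4-fold. Wnt5a, an HSC-associated ligand of the noncanonical branch, stood at 0.84 and 0.07, a difference of -0.77. Wnt2b differed by -0.92, Wnt7a by -0.74, Wnt1 by -0.68 and Wnt10b by -0.33. All 9 ligands compared were below 0, with a median of -0.68, and this subset was picked after its values were seen. Median centring left 7 of 9 below 0, and 8 of 9 did not reach 2-fold. In LMPP Wnt5b differed by 1.37, the other way. Of 8 Frizzled receptors 5 lay above 0, with Fzd5 at least 2.99 and Fzd1 at least 1.86 higher and Fzd8 at -1.33. The other probe of Fzd5 gave 0.44, and Fzd1 and Fzd8 were under 2-fold with normexp. The coreceptor Lrp6 was at -1.0028 by 1 probe and 0.22 by the other, beta-catenin (Ctnnb1) stood at 5.55 and 5.61, and Axin2 and Lef1 were not well above background. Of 27 genes of the pathway 2 were higher and 3 lower, with a median of -0.18.

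DNA damage genes had more members past 2-fold lower than past 2-fold higher. Of 29 compared, 7 were past 2-fold lower and 3 higher, with a median of 0.01. Brca1, which mediates repair by homologous recombination, stood at -1.27 and -3.44, a difference of -2.17. The end joining factors Nhej1 and Xrcc4 differed by -1.45 and -1.17, the translesion polymerase Polk by -1.51 and the checkpoint kinase Chek1 by -1.08. The p53 target Perp, a desmosome protein, stood at 0.89 and -0.64, a difference of -1.53. The p53 relative Trp73 differed by -1.49. Of the 29, 14 lay below 0, among them the p53 targets Zmat3 (-0.61), Trp53inp1 (-0.53), Sesn1 (-0.30) and Mdm2 (-0.28). Other targets lay above 0. Cdkn1a, the p21 inhibitor of cyclin-dependent kinases, stood at 0.72 and 1.81, a difference of 1.09, with Phlda3 at 1.02, Bbc3 at 0.53 and Aen at 0.33. Ligase 4 (Lig4) was at least 1.44 higher. Polk gave -0.46 with its other probe, and Brca1, Nhej1 and Trp73 did not pass 2-fold with normexp. Polk and Trp73 were under 2-fold with the mean over probes, and Xrcc4 and Chek1 with median centring. The LMPP differences of Brca1 (0.44) and Nhej1 (0.77) had the other sign.

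Replication and mitosis genes differed little as groups. Of 39 replication and nucleotide genes 2 were higher and 1 lower, with a median of 0.14, and Mcm6 (7.69 and 7.83) and Pcna (4.98 and 5.04) differed by 0.14 and 0.06. Tyms, which makes thymidylate, stood at -0.50 and -3.05, a difference of -2.55. Shmt1, an enzyme of folate metabolism, differed by 1.21, and its other probe gave 0.28. Of 35 mitosis genes 2 were higher, the kinetochore gene Nuf2 at 1.21 and the kinesin Kif2c at 1.72, with a median of 0.24 and Mki67 at 0.18. Among CDK inhibitors and D cyclins Cdkn1a was higher and Cdkn2c at least 1.64 lower, of 15 with a median of 0.28. Of 12 Bcl2 family genes Bcl2l11, which encodes Bim, was 1.18 higher. The 1.11 of Bcl2l2 rests on 1 of 2 probes, with the other at -1.84. Shmt1, Nuf2, Cdkn2c, Bcl2l11 and Bcl2l2 were under 2-fold with normexp.

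Chromatin regulators and imprinted genes were examined because Satb1 acts on chromatin. Of 41 chromatin genes 2 were past 2-fold higher, Ezh1 among them, and 0 lower, and the median was 0.22. Ezh1, a histone H3 methyltransferase of Polycomb complex 2, stood at 0.99 and 2.20, a difference of 1.21, though its probes ranged down to -0.31. The DNA methyltransferases Dnmt3b, Dnmt3a and Dnmt1 stood 0.66, 0.69 and 0.64 higher, under 2-fold in each case. Ezh2, Suz12 and Ctcf differed by 0.07, 0.11 and 0.13. Tet2 differed by -0.35, Smarcc1 by -0.51 and the Polycomb protein Cbx7 by -0.53. Of 20 imprinted genes 2 were higher and 2 lower, with a median of 0.27. Kcnq1ot1 (-1.80) and Gnasas1 (-1.54), noncoding RNAs of imprinted loci given above, were not members of this list. The maternal noncoding RNA Mirg stood at -0.81 and -3.38, a difference of -2.57, and Mest was at least 2.88 lower by its brightest probe, while its other 2 probes, not well above background on both arrays, gave 1.30 and 2.09. Igf2, a fetal growth factor expressed from the paternal copy, stood at -2.13 and -0.47, a difference of 1.66, and its receptor Igf2r at 3.08 and 3.26. Of 17 Hox genes and cofactors, Hoxb6 was at least 2.68 and Pbx3 1.39 higher and Hoxb2 at least 1.47 lower, with a median of -0.12. These 3 and Igf2 were under 2-fold with normexp, and Ezh1 with the mean over probes.

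Housekeeping groups differed little between the 2 arrays. Over all genes with a mean level of 4 or more the spread was wider than for ribosomal protein genes. Those differences lay between -0.56 at the 5th percentile and 0.51 at the 95th. All 45 cytosolic ribosomal protein genes lay within 2-fold, with a median of 0.04, and Rps9 stood at 8.29 and 8.34. Of 34 oxidative phosphorylation genes none was past 2-fold, and the median was 0.13. Of 26 glycolysis and hypoxia genes 24 lay above 0, with a median of 0.29, Aldoa at 0.64, Gapdh at 0.31 over 7 probes that ranged from 0.07 to 0.40, and 1 past 2-fold, Hk3 at 1.44, which was under 2-fold with normexp. Homing genes had 2 higher and 3 lower of 26 (median 0.30), the Myc and Mxd network 2 higher and 1 lower of 13 (median 0.25), and Eph receptors and ephrins 2 higher of 14 (median 0.36). Epha2 stood at -3.43 and 0.03, a difference of 3.47, and was higher in LMPP by 2.36 and in CLP by 2.06. The brightest members, Ephb3 (9.50 and 9.14) and Epha5 (9.39 and 9.08), differed by -0.36 and -0.31. The other probe of Epha5 stood at -5.91 and -5.89, not well above background, so its high level rests on 1 of its probes.

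Gene by gene, the HSC differences were mostly not repeated in LMPP and CLP, whose arrays lay in the same slide rows. Some lists, picked after their values were seen, differed there as well. Erythroid genes had 12 of 21 higher and 0 lower in LMPP (median 1.40), and 0 of 24 higher and 1 lower in CLP (median 0.03). B lineage genes had 7 of 17 higher and 1 lower in LMPP (median 0.50), and 5 of 21 higher and 0 lower in CLP (median 0.59). Interferon response genes had 0 higher and 8 lower of 33 in LMPP (median -0.72), and 2 higher and 6 lower of 32 in CLP (median -0.06). The median difference of all genes compared was -0.045 in LMPP and 0.046 in CLP, against which counts above or below 0 are to be read. Of the 186 bright higher genes, 111 of 185 compared lay above 0 in LMPP and 105 of 185 in CLP. Past 2-fold higher were 16 in LMPP and 28 in CLP. Of all genes compared in those populations, 5.74% and 11.8% were past 2-fold higher, and of their bright genes 1.0% and 4.49%. Of the 79 bright lower genes, 55 of 79 lay below 0 in LMPP and 54 of 78 in CLP, with 3 and 5 past 2-fold lower, beside 4.03% and 8.25% of all genes and 0.523% and 3.39% of bright genes. In either direction these shares were 9.77% and 20.1% of all genes and 1.53% and 7.88% of bright genes. Across the 10666 genes measured on all 6 arrays, the HSC differences had a Pearson r of 0.118 with those of LMPP and 0.0827 with those of CLP, a description across genes, which are not independent replicates.

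Past 2-fold in the same direction in all 3 populations were Cdkn1a and Sh3d21 among bright higher genes and Gm3285 among bright lower genes. Cdkn1a differed by 1.09, 1.25 and 1.33 in HSC, LMPP and CLP, and Sh3d21, an SH3 domain protein, by 1.09, 1.51 and 1.11. Gm3285 differed by -1.42, -1.43 and -1.54. Kcnj13, whose probes agreed, differed by -2.26, by at least -1.44 and by -1.15. Cdkn1a and Sh3d21 fell just under 2-fold in HSC with the 75th percentile over detected probes, with normexp and with the authors' values. Hspa1a, Epha2 and Pou2af1, dimmer genes chosen here after their values were seen, were also more than 2-fold higher in each population.

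**Figure D5:**
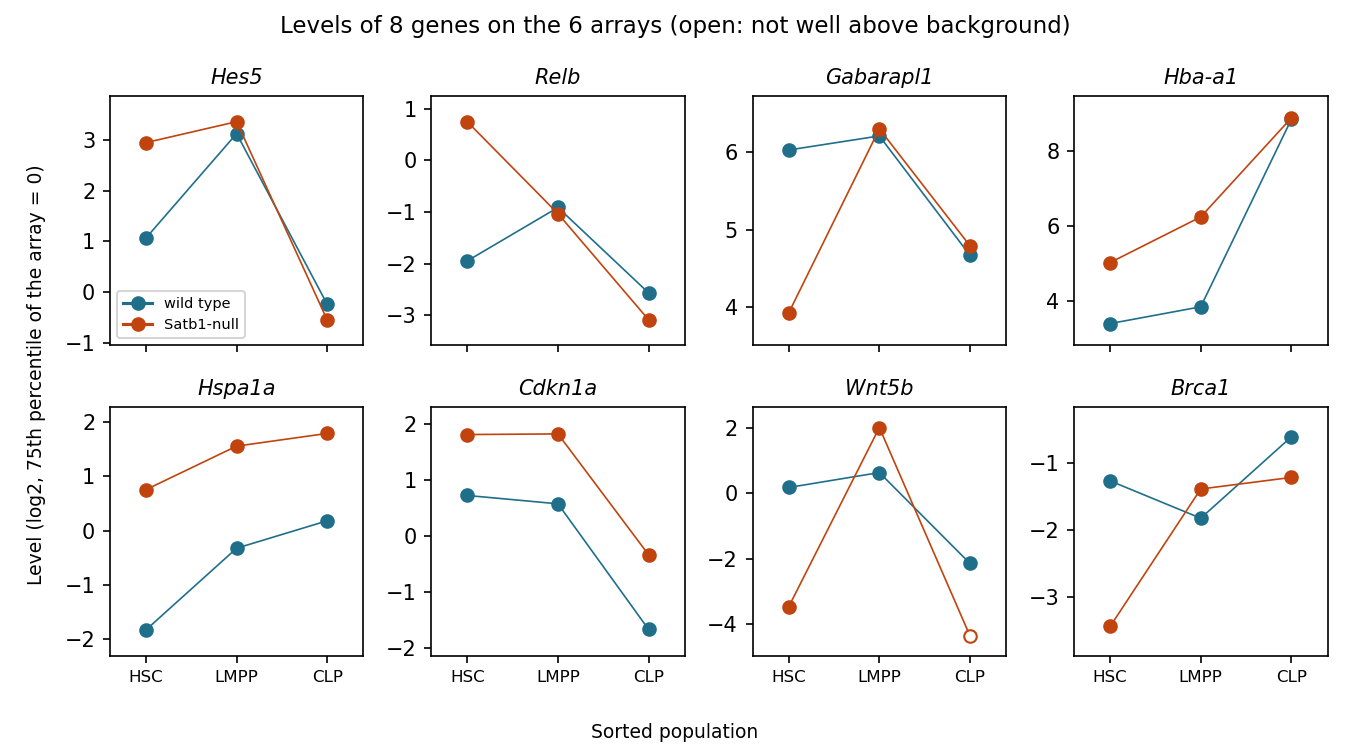
Each panel gives the log2 level of 1 gene on the wild type (blue) and null-labelled (orange) arrays of HSC, LMPP and CLP, 1 array a point, with lines joining the arrays of a genotype. The genotypes lie apart in all 3 populations for Hspa1a and Cdkn1a, and chiefly in HSC for Gabarapl1, Hes5 and Relb. For Wnt5b in CLP the null-labelled value was not well above background.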

How the data were processed

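Intensities were deposited by the authors as scanner files of 1 Agilent array per sample, made with Feature Extraction 10.10.1.1 per the file headers. The processed green intensity was turned to log2 and centred on the 75th percentile of all spots that are not controls, array by array. Control spots and outlier spots were left out, and spots of a probe were averaged (numpy 2.4.6, pandas 2.3.3). Accessions named 27229 of 55681 probes in the GRCm38.p6 table, and the brightest probe over the 6 arrays stood for a gene. A bound replaces the dimmer array's level by the lowest level well above background (-4.03 on both arrays), or by the gene's level if that is higher. The genes named were fixed by rule: the sort markers, the 20 highest and 20 lowest bright genes, up to 15 probe-agreed genes and up to 5 bounds each way, and, from 36 lists with 849 matched genes, up to 6 members past 2-fold and up to 3 of the brightest others. Other list members were named after their values were seen, and some genes are not reported here. The members and lists were chosen with earlier results of these data known. The authors' deposited value table, a linear intensity, equals the scanner's processed signal times 8.77 (wild type HSC) or 6.85 (null-labelled HSC), and the basis of the constants is unknown. Background correction by normexp (limma 3.58.1) used median spot signals, as the files hold no mean signals. The comparison was tested on simulated data. The number of arrays limits the precision.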

Additional observations from a re-analysis of the deposited data

Results flagged for a closer look

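Of 66 genes named for their brightness or their agreeing probes, 11 were past 2-fold in HSC and past 2-fold in the other direction in LMPP or CLP; the differences between populations were not tested. Chst1 differed by 4.25 in HSC and by at least -6.01 in CLP. The sialidase gene Neu3 differed by 1.82 in HSC and -2.0 in CLP, the tight junction gene Tjp3 by 1.69 and -1.12, and Zfp503 by 1.63 and -1.60. Lower in HSC and higher in CLP were Zscan20 (-1.72 and 3.61), Zfp93 (-1.44 and at least 3.15), Rac3 (-1.84 and at least 2.48), Cideb (-1.24 and 1.63), Xaf1 (-1.27 and 1.6) and Fcrl5 (-1.38 and 1.35). Zfp692 differed by -1.56 in HSC, 1.1 in LMPP and 1.20 in CLP.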

How the results depend on the processing

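Each group had 1 array, so leaving out an array was not possible. No paired analysis was possible because each group has 1 sample. Counts of genes past 2-fold depended on the settings. Of all genes, the 1125 higher and 785 lower became 267 and 133 with normexp, 710 and 486 when both arrays had to be well above background, 1691 and 1910 without a detection filter, 2548 and 1839 at 1.5-fold, and 437 and 250 at 3-fold. The 186 bright higher genes became 369 with median centring, 120 with the 75th percentile over detected probes, 119 with normexp, 920 at 1.5-fold, 28 at 3-fold and 88 with bright set at a level from 1. The 79 bright lower genes became 35 with median centring, 129 with the percentile over detected probes, 130 with quantile normalization, 35 with normexp, 120 with the authors' values, 358 at 1.5-fold, 7 at 3-fold and 32 with bright from 1. The 28 probe-agreed higher genes became 53 with median centring, 13 with the percentile over detected probes, 2 with normexp, 18 with the authors' values, 76 without a detection filter, 136 at 1.5-fold and 3 at 3-fold. The 13 lower became 8 with median centring, 3 with normexp, 67 without a filter, 57 at 1.5-fold and 4 at 3-fold. Median centring moved the median of all genes by 0.18 and the percentile over detected probes by -0.13, since each shifts an array by a constant. The share of higher genes among those past 2-fold was 58.9%, and 73.9% with median centring, 46.4% with detected probes and 47.0% without a filter. Among bright genes it was 70.2%, and 91.3%, 48.2%, 52.6% and 57.9% with median centring, detected probes, the authors' values and quantile normalization. Past 2-fold under all 6 centring, normalization and probe settings were 218 of the higher and 107 of the lower genes, 87 and 22 of them bright. Of the named genes past 2-fold, 2 changed direction, both with the mean over probes, Ermap to 0.38 and Bcl2l2 to -0.37. The list medians of Hox, T lineage, natural killer, macrophage, dendritic cell, endothelial, Wnt, p53, ribosomal protein and oxidative phosphorylation genes changed sign under at least 1 setting. Signal near background limits lists with many bounds, such as the receptors of smell and the B lineage genes.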

Other observations

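Genes outside the groups above also differed. Long noncoding RNAs were past 2-fold in 30.4% of 322 compared, 46 higher and 52 lower, beside 13.8% of 13014 protein-coding genes, but among bright genes the shares were 7.46% of 67 and 3.76% of 6838. The long noncoding RNA 1700026D11Rik and the transcribed pseudogene E130201H02Rik were at least 5.09 and at least 5.42 higher in null-labelled HSC, and the protein-coding gene C130026I21Rik was at least 4.23 lower, each with 1 HSC array not well above background. Nkx2-5, a cardiac homeobox gene, and H60b, a ligand of the NKG2D receptor, were at least 4.99 and at least 4.89 higher. For the 4 higher genes, neither LMPP array was well above background.

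Of 1065 autosomal receptors of smell, 92 were well above background in wild type HSC and 86 in null-labelled HSC. Of 138 compared, 31 were past 2-fold higher and 18 lower, beside 8.37% and 5.84% of all genes compared. Only 2 of the 138 were bright, and 40 were measured on both arrays. Among all genes with a mean level below -2, 31.7% were past 2-fold in either direction. Olfr1316 was at least 5.03 higher. Olfr11, named after its values were seen, stood at -2.70 and 1.22, a difference of 3.92. The bright Olfr1410 stood at 2.56 and 1.43, a difference of -1.13.

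Potassium channel genes (symbols starting with Kcn, a family chosen after its values were seen) had 12 of 47 past 2-fold lower and 5 higher, with a median of -0.47, and 8 of the 47 were bright. In all 36.2% were past 2-fold, beside 14.2% of all genes compared. The share was 31.7% of all genes with a mean level below -2 and 18.9% between -2 and 0. Zinc finger genes with the stem Zfp had 34 of 309 higher and 14 lower, 15.5% in all beside 14.2% of all genes.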
